A study of Mus musculus with 18 samples.

Results

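The respiratory chain was followed through 59 genes chosen by name, of 28852 genes in the deposited table, in the cerebral cortex of young mice. Of these, 13 are encoded by mitochondrial DNA and 46 by the nucleus. The mitochondrial genes comprise 7 subunits of complex I, 1 of complex III, 3 of complex IV and 2 of ATP synthase. The nuclear genes comprise 23 subunits of complex I, 4 of complex II, 7 of complex III, 11 of complex IV and cytochrome c (Cycs). All 59 were found in the table and all 59 reached 1 FPKM in at least 3 of the 18 libraries, the limit for entering the tests. FPKM is a fragment count divided by transcript length and by the total of the library.

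The respiratory chain passes electrons from NADH and succinate to oxygen and pumps protons across the inner mitochondrial membrane, and ATP synthase uses the returning protons to make ATP. The mitochondrial genome encodes core subunits of complexes I, III and IV and of ATP synthase, while the other subunits, and all of complex II, are made from nuclear genes and imported. Neurons depend on this route for most of their ATP, and the developing cortex comes to rely on it more as synapses form after birth.

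The study compared mice labelled Alg13 knockout (KO) with mice labelled wild type (WT) at 1, 7 and 30 days after birth, to ask how loss of Alg13 bears on cortical interneurons. Alg13 works with Alg14 in an early sugar transfer of protein N-glycosylation. The 6 groups were KO day 1, WT day 1, KO day 7, WT day 7, KO day 30 and WT day 30, with 3 libraries each of whole cortex. The way the allele was made, the strain and sex of the mice, and whether the replicates came from separate animals are not stated in the labels, so p-values measure only the spread between libraries, which may be technical. In whole tissue, a change in the make-up of the cells and a change in RNA per cell cannot be told apart.

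Alg13 mRNA did not check the genotype labels. It measured 2.5, 2.57 and 1.04 FPKM in libraries labelled KO at day 1, against 3.27, 1.93 and 2.79 in libraries labelled WT. At day 7 it measured 1.93, 2.34 and 2.78 FPKM against 1.92, 1.94 and 1.53, and at day 30 1.32, 1.19 and 1.82 against 0.968, 0.833 and 1.21. None of these differences passed, with a limma adjusted p of 0.38 at day 1, 1.00 at day 7 and 1 at day 30. Below, KO and WT are therefore the labels of the libraries.

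Total FPKM per library ran from 313919 to 394975, and between 11703 and 12780 genes reached 1 FPKM. The files hold no read depth. Neuron markers were present in all libraries, 7 of them summing to between 864 and 2184 FPKM, the lowest in WT day 1 replicate 3. WT day 1 replicate 3 stood apart. Its 7 salivary gland markers summed to 35774 FPKM, against at most 14.7 in the other 17 libraries, and its 6 brown fat markers to 1997 FPKM, against at most 2.97. The brown fat and muscle isoforms of complex IV marked the same library, Cox7a1 at 119 FPKM and Cox8b at 206 FPKM, where no other library exceeded 2.93 and 1.54 FPKM. It also had the highest summed level of the 46 nuclear genes, 8955 FPKM, against 4106 to 8222 in the others. KO day 1 replicate 3 had 6524 FPKM for the same 46 genes, above the 4498 and 4390 FPKM of the other KO day 1 libraries.

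The mitochondrially encoded genes spanned a wide range of levels, given here as means over the 18 libraries. COX1, the catalytic subunit of complex IV, had the highest mean of all 59 genes at 14510 FPKM. CYTB of complex III followed at 12287, then ND1 at 9370, ND2 at 5230, ND5 at 4069 and ND4 at 4065 FPKM, all but CYTB in complex I. COX2 and COX3, the other core subunits of complex IV, had only 348 and 219 FPKM. ATP6 and ATP8, the membrane subunits of ATP synthase, had 179 and 125 FPKM, ND3 had 88.7, and ND4L and ND6 had 67.0 each. The ATP8 mean was 62.9 FPKM over 17 libraries without its highest, and ATP8 lay below ND3 in 5 of the 6 groups. ND5 lay below ND4 in 2 of the 6 groups, so the order of those neighbours was not fixed. ND6 is the only one of the 13 on the opposite strand, where it overlaps ND5. ATP8 overlaps ATP6, and ND4L overlaps ND4, so fragments may be shared between them.

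Among the low ones, 5 have a nearly identical complete copy among nuclear pseudogenes. In GENCODE M21, which annotates build GRCm38 and not the build of the files, COX2, COX3, ATP6 and ND4L match Gm28661, Gm28437, Gm10925 and Gm10222 on chromosome 1 at 100% identity over at least 98% of their length. ND3 matches Gm28438 at 99.7% with a single base changed, T3C, counted from the first base of ND3 and written with the mitochondrial base first. The first 61 bases of both are shown because the copy differs from the gene at a single base, which is in capitals; ND3 lies at chrM:9459-9519 on the plus strand and the copy at chr1:24613059-24613119 on the minus strand.
ND3: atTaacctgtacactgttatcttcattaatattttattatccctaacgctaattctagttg
Gm28438: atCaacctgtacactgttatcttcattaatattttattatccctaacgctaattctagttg
The 5 genes with such a copy averaged between 67.0 and 348 FPKM. COX1 also has a full-length copy, Gm13340 on chromosome 2, at 97.6% identity, and ND4 matches Gm28439 over 63.6% of its length. The copies named above are not listed under these names in the deposited table. Their part in the levels was not tested, so levels of these genes relative to the other mitochondrial genes are uncertain.

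**Figure D1:**
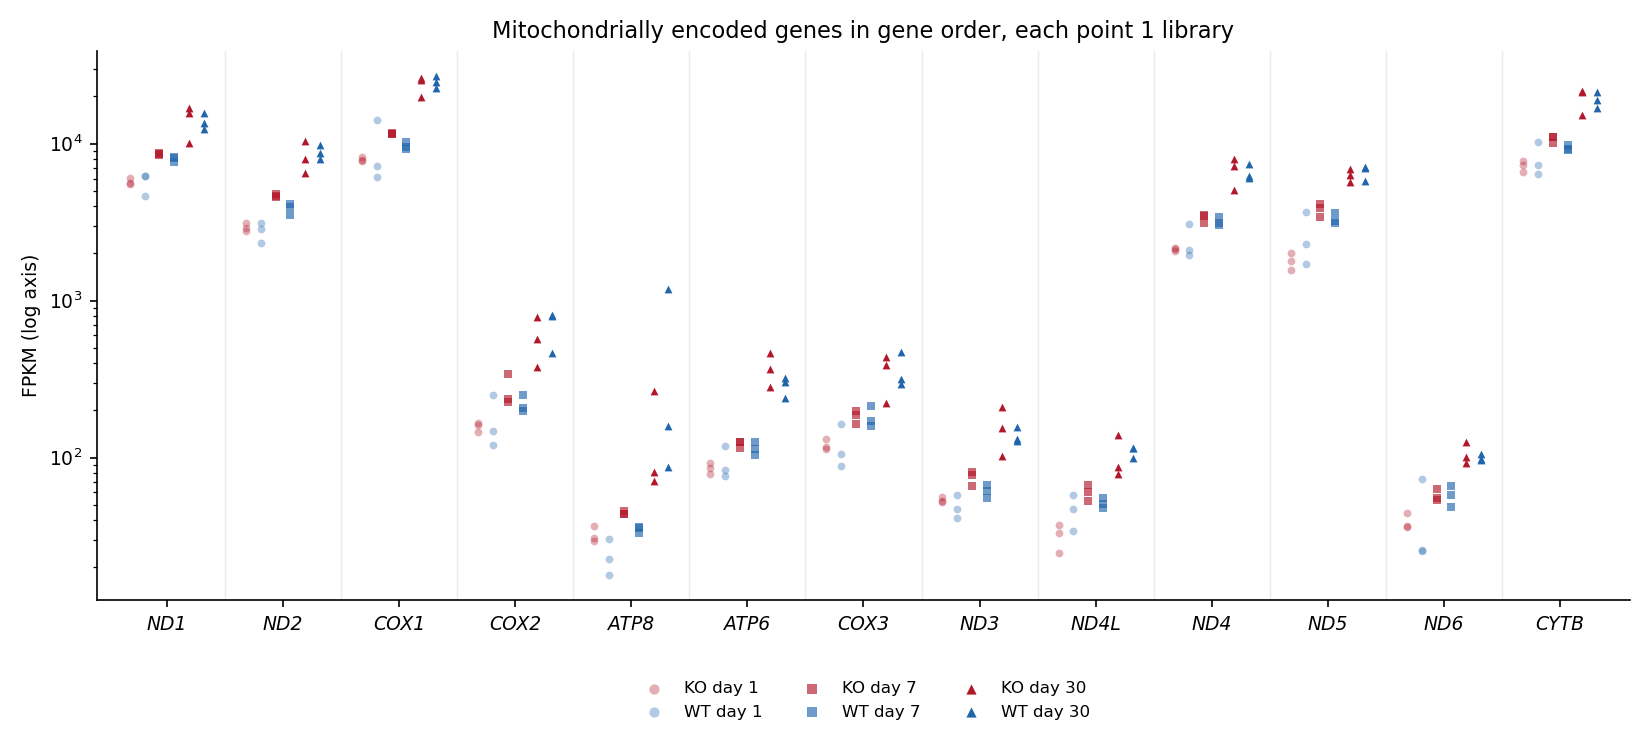
FPKM (log axis) of the 13 mitochondrially encoded genes in their order along the mitochondrial genome, each point 1 library, with 3 libraries per group. Day 30 libraries (triangles) lie above day 7 (squares) for every gene in both genotypes, and ATP8 at day 30 has 1 WT library at 1189 FPKM.

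Among nuclear genes, subunits of complex IV were the most abundant per length. Cox6b1, which lies where complex IV units meet in its dimer, averaged 577 FPKM, Cox4i1 511 and Cox8a 385 FPKM. The median over the 11 complex IV genes was 328 FPKM, compared with 69.0 for the 23 complex I genes, 76.8 for the 4 complex II genes and 90.7 for the 7 complex III genes. Ndufs7, an iron-sulphur subunit of complex I, was the lowest of all 59 at 26.4 FPKM. It ran from 18.9 to 38.2 FPKM over the 18 libraries.

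Mitochondrially encoded RNA took a growing share of the transcriptome with age. The 13 genes made up 8.63, 8.98 and 7.35% of total FPKM in KO at day 1 and 8.85, 7.48 and 10.4% in WT. At day 7 they made up 14.1, 13.8 and 12.8% in KO and 11.3, 12.1 and 11.4% in WT. At day 30 they made up 24.6, 20.3 and 24.9% in KO and 24.6, 22.9 and 26.3% in WT. The 3 KO libraries lay above the 3 WT libraries at day 7, and the genotypes overlapped at days 1 and 30. The 46 nuclear genes together took between 1.30 and 2.27% of total FPKM. Their share was 1.36, 1.36 and 1.74% in KO at day 1 and 1.33, 1.30 and 2.27% in WT, where each highest value is replicate 3. At day 7 it was 1.79, 1.88 and 1.82% in KO and 1.87, 1.93 and 1.71% in WT. At day 30 it was 2.22, 2.01 and 2.11% in KO and 1.84, 1.81 and 1.86% in WT, without overlap. The 13 mitochondrial genes are part of that total. Of the FPKM without those 13, the 46 took 1.49 to 1.88% in KO and 1.41 to 2.53% in WT at day 1. They took 2.08 to 2.18% in KO and 1.93 to 2.19% in WT at day 7. At day 30 they took 2.522 to 2.94% in KO and 2.344 to 2.520% in WT, so the genotypes barely separated.

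**Figure D2:**
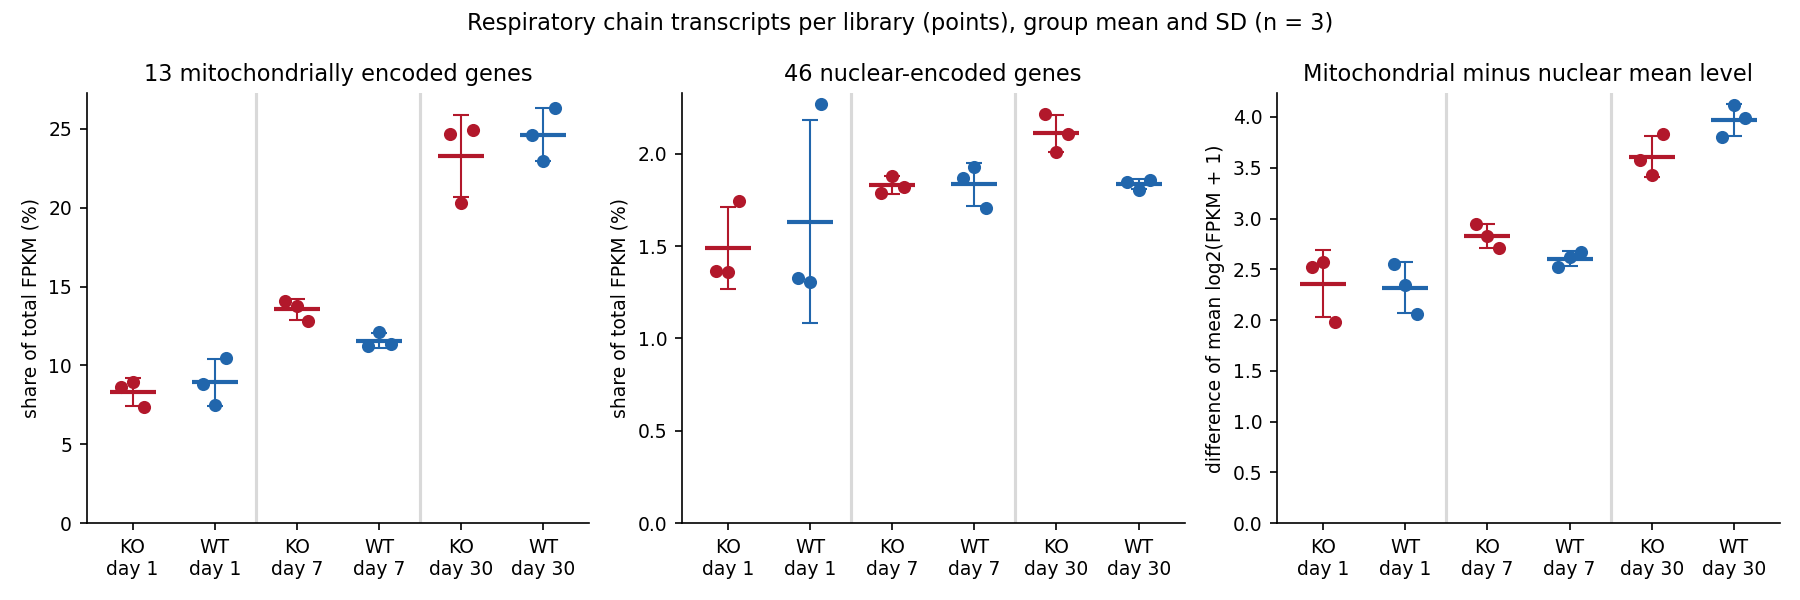
Left and middle, the 13 mitochondrially encoded and the 46 nuclear-encoded genes as a share of total FPKM (%). Right, the mean log2(FPKM + 1) of the mitochondrial genes minus that of the nuclear genes. Points are libraries, thick lines group means and bars 1 SD (n = 3). The mitochondrial share lies between 20.3 and 26.3% at day 30 and between 7.35 and 10.4% at day 1.

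From day 7 to day 30 nearly all mitochondrial genes rose in both genotypes. In KO 12 of 13 passed the limma test and all 12 rose, where 15.9% of the 13347 genes tested rose. In WT all 13 passed and rose, where 20.8% of genes did. Quantile normalization, which fixes the values of the highest ranks, lowered these counts to 6 in KO and 8 in WT and left 10 and 9 of the 13 higher on average. The median log2 change of the 13 was 0.88 in KO and 1.09 in WT, and that of all genes tested was -0.05 in KO and -0.08 in WT. The 3 day 30 libraries lay above the 3 day 7 libraries for 13 of 13 genes in each genotype. The exception to the test in KO was ATP8, which had 81.6, 71.01 and 266 FPKM at day 30 against 43.8, 43.6 and 45.6 at day 7. When single KO libraries were left out, the KO call was lost in 1 of 6 fits for COX2, in 2 for COX3 and in 3 for ND6. Cell markers changed over the same interval. Oligodendrocyte markers rose for 6 of 6 genes in both genotypes, with medians of 3.89 in KO and 4.33 in WT, and microglial markers for 6 of 6, with medians of 1.00 and 1.27. Neuron markers rose for 3 of 7 and fell for 1 in KO, and rose for 4 and fell for 1 in WT. Red blood cell markers rose for 5 of 5 in KO and for none in WT. Their part in the mitochondrial rise was not tested.

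COX1 reached 26245, 19950.1 and 25527 FPKM in KO at day 30, against 11749, 11453 and 11600.2 at day 7. In WT it reached 24599.8, 22724 and 27095 FPKM at day 30, against 9211, 10288 and 9461 at day 7. The day 30 libraries were higher than every day 7 library in both genotypes, by 1.03 ± 0.25 log2 (SE) in KO (adjusted p = 0.00398) and 1.36 ± 0.25 in WT (adjusted p = 2.9e-04). COX2, which takes electrons from cytochrome c, rose by 1.07 ± 0.29 in KO and 1.62 ± 0.29 in WT (adjusted p = 0.00798 and 2.3e-04). CYTB, the cytochrome b of complex III, rose by 0.84 ± 0.21 in KO and 1.03 ± 0.21 in WT. ATP6, the proton channel subunit of ATP synthase, had 368, 280.2 and 467 FPKM in KO at day 30 against 127, 125 and 116 at day 7, and 301, 324 and 240.3 in WT at day 30 against 103, 125 and 113 at day 7. Its rise of 1.56 ± 0.18 was the largest mitochondrial rise of this interval to pass the test in KO, and in WT it rose by 1.33 ± 0.18. Among the 7 complex I genes, ND3, ND4, ND6 and ND2 led in KO with rises of 0.99, 0.99, 0.88 and 0.80. In WT the leading rises were 1.19 for ND2, 1.17 for ND3, 1.09 for ND4L and 1.04 for ND4.

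ATP8 gave the largest log2 change in WT, 2.83 ± 0.65 (adjusted p = 0.00185), and rested in large part on 1 library. Its values in WT at day 30 were 87.3, 1189 and 159 FPKM, against 35.6, 33.2 and 36.4 at day 7. The value of 1189 FPKM in replicate 2 compares with 17.8 to 266 FPKM in the other 17 libraries. The gene overlapping it, ATP6, measured 324 FPKM in that library, against 301 and 240 FPKM in the rest of its group. Without replicate 2 the ATP8 rise in WT was 1.72, still past the test.

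From day 1 to day 7 the median change of the mitochondrial genes was smaller. In KO 8 of 13 passed and rose, where 19.3% of all genes tested rose, with a median of 0.59 for the 13. ND5 led, with 4133, 3891 and 3419 FPKM at day 7 against 1782, 2026 and 1575 at day 1, a rise of 1.09 ± 0.22 (adjusted p = 7.1e-04). ND4L followed at 0.92, COX2 at 0.73, ND2 at 0.67, ND4 at 0.66, CYTB at 0.56 and ATP6 at 0.52. When single KO libraries were left out, ND5, ND4L, ND2 and ND4 passed in all 6 fits, while the call was lost in 4 for ATP6, in 5 for COX2 and in 6 for CYTB. The 3 day 7 libraries lay above the 3 day 1 libraries for 13 of 13. In WT 3 of 13 passed, COX3 at 0.64 ± 0.25, ND1 at 0.50 ± 0.20 and ND2 at 0.49 ± 0.18, where 20.9% of all genes rose, with a median of 0.44 for the 13. COX3 had 160.1, 213 and 172 FPKM at day 7 against 106, 88.5 and 163 at day 1, and the highest day 1 value, from replicate 3, overlapped the day 7 range. Leaving out single WT libraries lost the call in 5 of 6 fits for COX3 and ND1 and in 4 for ND2, and without WT day 1 replicate 3 the 3 rises were 0.89, 0.57 and 0.58, all past the test. Leaving out WT day 1 replicate 3 brought the WT count to 10 of 13 mitochondrial and 29 of 46 nuclear genes, all higher at day 7. The 20.9% of all genes belongs to the fit with all libraries, and the share without that library is not given here. Astrocyte markers rose over this interval for 5 of 6 genes in KO and 6 of 6 in WT, with medians of 2.17 and 2.60, oligodendrocyte and microglial markers for 6 of 6 each in KO and 4 of 6 each in WT, and neuron markers for 5 of 7 in both, with 1 lower in KO. Their part was not tested. Whether the change differed between genotypes was tested as an interaction, which called none of the 59 genes.

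**Figure D3:**
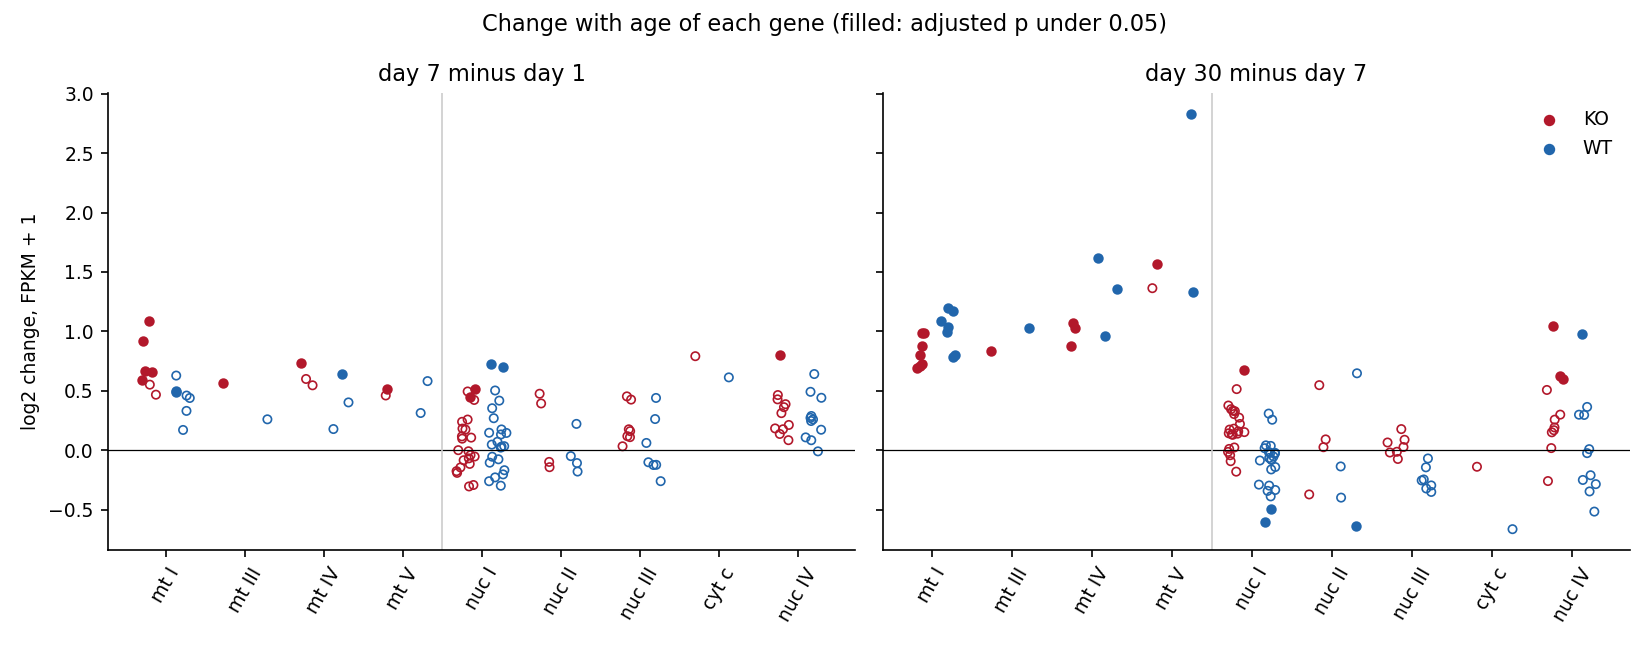
Log2 change of FPKM + 1 with age for each of the 59 genes, by complex and genome (mt, mitochondrially encoded; nuc, nuclear), KO left of WT in each column. Filled points passed the limma test at an adjusted p under 0.05. From day 7 to day 30 the mitochondrial genes lie between 0.69 and 2.83 and the nuclear genes between -0.67 and 1.05.

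The median nuclear change from day 1 to day 7 was 0.17 in KO and 0.10 in WT. From day 1 to day 7 in KO 3 of 46 rose and none fell, Cox8a by 0.80 ± 0.29, Ndufb2 by 0.52 ± 0.19 and Ndufs1 by 0.45 ± 0.15, where 19.3% of all genes rose and 29.4% fell. The Cox8a call was lost in 4 of 6 fits that left out a KO library, and its rise was 1.02 without KO day 1 replicate 3, past the test. In WT 2 of 46 rose and none fell, where 20.9% of all genes rose and 28% fell. Ndufb2, an accessory subunit in the membrane arm of complex I, had 34.6, 33.2 and 34.96 FPKM at day 7 against 15.4, 18.8 and 29.1 at day 1 in WT, a rise of 0.72 ± 0.19 (adjusted p = 0.00438). Every WT day 7 value of Ndufb2 lay above every day 1 value, and the rise was 0.97 without WT day 1 replicate 3. Ndufa1, another small membrane arm subunit, rose by 0.70 ± 0.23, although its day 1 value of 109.8 FPKM in replicate 3 overlapped day 7. Without that library the Ndufa1 rise was 1.07, and the call was lost in 3 of 6 fits that left out a WT library.

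From day 7 to day 30 in KO 4 of 46 nuclear genes rose and none fell, with a median of 0.15. Of all genes tested in KO, 15.9% rose and 22% fell. In WT 1 nuclear gene rose and 3 fell, where 20.8% of all genes rose and 29.6% fell. Cox8a, the subunit VIII isoform of complex IV used in most tissues, had 746, 568 and 663 FPKM at day 30 against 333, 326 and 292 at day 7, a rise of 1.05 ± 0.29 (adjusted p = 0.00993). In WT it had 584, 601 and 648 FPKM at day 30 against 317, 339.8 and 274 at day 7, a rise of 0.98 ± 0.29 (adjusted p = 0.0104). For Cox8a, day 30 lay above day 7 without overlap in both genotypes. In the fit of all libraries, Cox8a was the only nuclear gene of the 46 called higher in WT in this interval. The number of nuclear calls depended on the fit. In the main fit the 6 groups shared 1 estimate of the spread of each gene. The day 1 libraries numbered 3 therefore entered the error of comparisons that do not use them. More nuclear genes passed in WT when the compared groups were fitted alone, and when both day 1 libraries numbered 3 were left out. The direction of those added calls is not given here. In WT, day 30 lay above day 7 without overlap for 7 of the 46 nuclear genes and below for 21. Cox6c, Cox6a1 and Ndufb9 rose in KO alone by the test, by 0.62, 0.60 and 0.68, and measured 0.30, 0.36 and 0.31 in WT (adjusted p = 0.299, 0.192 and 0.271). The difference between the genotypes was not called for any of these.

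Sdhd, the membrane anchor of complex II, fell in WT to 51.05, 48.9 and 54.5 FPKM at day 30, against 81.9, 85.9 and 73.9 at day 7, a change of -0.63 ± 0.23 (adjusted p = 0.0279). Ndufs4, an accessory subunit of complex I whose loss causes a Leigh-like brain disease in mice, fell to 28.2, 32.97 and 31.4 FPKM, against 47.8, 48.5 and 45.6, a change of -0.60 ± 0.17 (adjusted p = 0.00817). Ndufb2 fell by 0.49 on the log2 scale (adjusted p = 0.0364). Day 30 lay below day 7 for all 3, while their KO changes were -0.37, -0.09 and -0.18, none of which passed. The WT median over the 46 nuclear genes was -0.14, but it became 0.07 under quantile normalization and under scaling to the total of the other genes. Here and below, the other genes are all genes but the 13 mitochondrially encoded ones, so they include the 46. The group thus had no direction common to the scalings. Scaling to the other genes moved the median of all genes to 0.09, from -0.08 in FPKM. Under both of those scalings Ndufs4 still passed (adjusted p = 0.0383 and 0.0188), and Sdhd and Ndufb2 did not. Ndufs4 also passed in all 6 fits that left out a WT library and without the filter. The Sdhd call was lost in 4 of those 6 fits and the Ndufb2 call in all 6, and both were lost without the filter (adjusted p = 0.0638 and 0.0731). Sdhd and Ndufb2 passed limma as TPM (adjusted p = 0.00489 and 0.0061) and with the replicate block (adjusted p = 0.0198 and 0.0229). They also passed in a fit of the compared groups alone (adjusted p = 1.5e-04 and 2.7e-04). Without both day 1 libraries numbered 3, which belong to neither group compared, limma gave adjusted p-values of 5.6e-05 and 5.5e-04.

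Between genotypes, no member passed the test on any day. The spread in this test was shared by all 6 groups, so WT day 1 replicate 3 entered it on every day. The test called 0.517% of all 13347 genes at day 1, 0.00749% at day 7 and 0.0225% at day 30. At an unadjusted p under 0.05 there were 1, 0 and 2 of the 59 genes, where 21.7%, 3.52% and 3.59% of all genes fell under it. Neither the mean of the 3 daily differences nor the genotype by day interaction called any of the 59, where 0.0974% and 0.015% of all genes were called, and at an unadjusted p under 0.05 both counts were 0, where 10.1% and 9.18% of all genes were. The smallest p of the mean over days belonged to ND3 (0.18 ± 0.11, adjusted p = 0.622) and Ndufa4 (0.15 ± 0.11, adjusted p = 0.662). Those of the interaction belonged to ND4L (adjusted p = 0.563) and Ndufs4 (adjusted p = 0.604).

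At day 1 the 2 smallest p-values were those of ND4L and ND5, both of complex I. ND4L measured 37.1, 33.3 and 24.7 FPKM in KO, against 47.4, 33.97 and 58.04 in WT, a difference of -0.53 ± 0.21 (adjusted p = 0.174). ND5 measured 1782, 2026 and 1575 FPKM in KO, against 2313, 1710.0 and 3691 in WT, a difference of -0.45 ± 0.22 (adjusted p = 0.241). The genotypes overlapped for both, and WT replicate 3 was the highest library for each. None of the 59 separated the genotypes at day 1, where 8.92% of all genes lay above and 5.87% below. Without WT day 1 replicate 3 the difference was -0.35 for ND4L and -0.16 for ND5, and without both libraries numbered 3 it was -0.19 and -0.07, none of which passed. Without WT day 1 replicate 2, both ND4L and ND5 passed as lower in KO (adjusted p = 0.04 for ND4L and 0.036 for ND5), and no other member did. The sign of the nuclear group at day 1 rested on single libraries. With all libraries 10 of 46 nuclear genes were higher in KO (median -0.10). Without WT day 1 replicate 3 there were 46 of 46 (median 0.26), without KO day 1 replicate 3 there was 1 of 46 (median -0.29), without KO replicate 1 or 2 there were 24 or 26 (medians 0.02 and 0.03), and without both libraries numbered 3 36 of 46 (median 0.08).

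At day 7 the 13 mitochondrial genes were all higher in KO on average, with a median difference of 0.20, against -0.01 over all genes, and none passed the test. Quantile normalization left 10 of 13 higher. The KO libraries lay above the WT libraries without overlap for 5 of 13, namely ND1, ND2, COX1, CYTB and ATP8, where 9.74% of all genes did. ND2, a proton-pumping subunit of complex I, measured 4768, 4558 and 4647 FPKM in KO, against 3531, 4105 and 3975 in WT, a difference of 0.27 ± 0.18 (95% interval -0.11 to 0.65; adjusted p = 1.00). ND3 measured 81.2, 77.2 and 65.8 FPKM in KO, against 55.2, 61.2 and 67.3 in WT, a difference of 0.28 ± 0.19 with overlap (adjusted p = 1.00). COX1 measured 11749, 11453 and 11600.2 FPKM in KO, against 9211, 10288 and 9461 in WT.

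The nuclear genes showed no such shift at day 7. The KO mean was higher for 11 of 46, with a median of -0.03, and these became 28, 23 and 29 of 46 under quantile normalization, TPM and scaling to the other genes. Ndufs1, the largest subunit of complex I, was the 1 nuclear gene with KO above WT, and Ndufa5, Ndufa8 and Ndufb7 were below, where 9.74% and 10.9% of all genes were. Ndufs1 measured 33.8, 33.6 and 34.9 FPKM in KO, against 31.6, 33.5 and 27.9 in WT. Markers of other cells also differed on average at day 7. Oligodendrocyte markers were higher in KO for 6 of 6 genes, with sums of 59.1 to 84.97 FPKM against 30.2 to 52.7 in WT, and microglial markers for 6 of 6, with sums of 61.3 to 88.0 FPKM against 42.7 to 59.1. Summed astrocyte markers were also higher in KO without overlap, with a mean of 369 against 304 FPKM. Summed neuron markers were lower in KO without overlap, with a mean of 1559 against 1671 FPKM, although 5 of the 7 genes were higher. Ribosomal protein genes took 5.76% of total FPKM in KO and 6.65% in WT, also without overlap. Salivary gland markers summed to at most 0.00123 FPKM in KO and 9.27 to 11.5 FPKM in WT. The part of these measures in the mitochondrial difference was not tested.

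At day 30 the shift was in the nuclear genes instead. All 46 nuclear genes were higher in KO on average, by a median of 0.27, where 55.3% of all genes were higher and their median was 0.02. None passed the test, so the group is described by counts. For 22 of 46 the KO libraries lay above the WT libraries without overlap, where 9.35% of all genes did, and for none below, where 5.51% did. These were 7 of 23 in complex I, 1 of 4 in complex II, 6 of 7 in complex III, 7 of 11 in complex IV, and cytochrome c. The count of 46 became 41, 45 and 44 under quantile normalization, TPM and scaling to the other genes, with medians of 0.20, 0.22 and 0.20. KO day 30 replicate 1 weighed most. Without it the median was 0.16, with 43 of 46 higher.

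The smallest p-values at day 30 were those of Ndufs4 and Cox7a2. Ndufs4 measured 50.6, 32.8 and 41.8 FPKM in KO, against 28.2, 32.97 and 31.4 in WT, a difference of 0.41 ± 0.17 (95% interval 0.04 to 0.77; adjusted p = 1). The lowest KO library lay within the WT range. Cox7a2, a complex IV subunit used in most tissues outside muscle, measured 185, 144 and 188 FPKM in KO, against 132, 117 and 137 in WT, a difference of 0.41 ± 0.18 without overlap (95% interval 0.04 to 0.78; adjusted p = 1). Ndufa4, a subunit of complex IV despite its name, measured 453, 330.0 and 421 FPKM in KO, against 311, 293 and 315 in WT. Cycs, which carries electrons from complex III to complex IV, showed the largest nuclear difference, 0.44 ± 0.32, with 34.5, 28.1 and 32.98 FPKM in KO, against 22.8, 23.8 and 22.9 in WT. In all of these KO replicate 2 was the lowest KO library.

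The mitochondrial genes did not follow at day 30. The KO mean was higher for 6 of 13, the median difference was -0.06, and the libraries overlapped for all 13. The 6 became 1 under quantile normalization and 3 under both other scalings, but 10 (median 0.18) without KO replicate 2 and 8 (median 0.09) without WT replicate 3. ATP8 measured 81.6, 71.01 and 266 FPKM in KO, against 87.3, 1189 and 159 in WT, and ATP6 368, 280.2 and 467 FPKM in KO, against 301, 324 and 240.3. The widest interval was that of ATP8, -2.52 to 0.25, which spans 0.

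**Figure D4:**
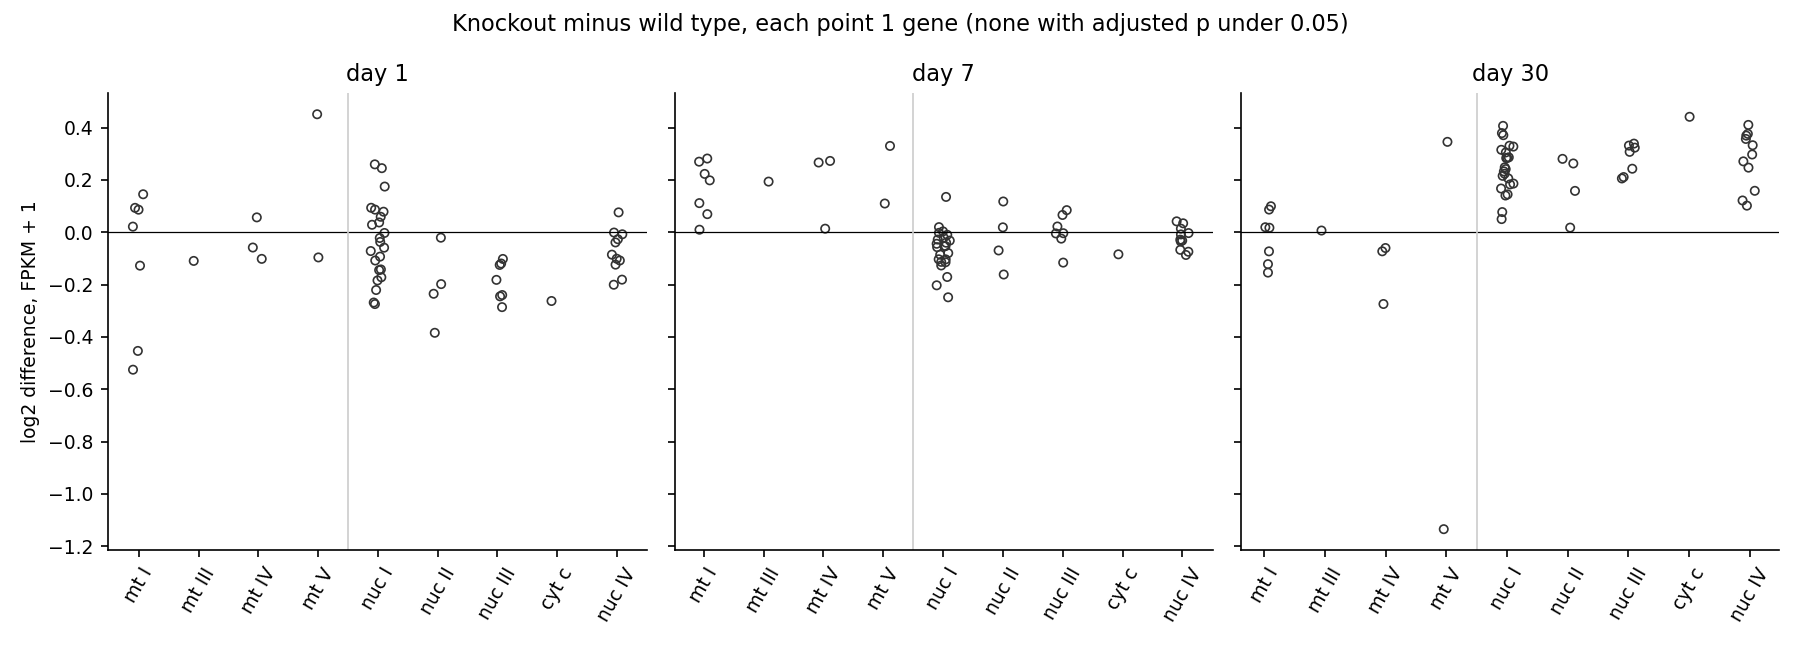
KO minus WT difference in log2(FPKM + 1) for each of the 59 genes at days 1, 7 and 30, by complex and genome (mt, mitochondrially encoded; nuc, nuclear). None passed the limma test. At day 7 the 13 mitochondrial genes lie above 0 (10 under quantile normalization), and at day 30 the 46 nuclear genes do (41 under quantile normalization).

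The level of mitochondrial relative to nuclear members was summed up per library as the difference of their mean log2(FPKM + 1). At day 7 it was 2.94, 2.83 and 2.70 in KO and 2.52, 2.62 and 2.67 in WT, a difference of 0.22 without overlap. At day 30 it was 3.57, 3.43 and 3.83 in KO and 3.80, 4.11 and 3.99 in WT, a difference of -0.36 with overlap, and -0.27 without overlap once ATP8 was left out. At day 1 it was 2.52, 2.58 and 1.98 in KO and 2.55, 2.34 and 2.06 in WT, a difference of 0.04. The lowest value of each genotype at day 1 was replicate 3. Leaving out KO replicate 3 changed the day 1 difference to 0.23, and leaving out WT replicate 3 to -0.09.

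Short and abundant genes outside the 59 were also mostly higher in KO at day 30. The nuclear members are short, with 34 of 46 up to 1000 bases and a median transcript length of 681.5 bases, against 2268 bases over the tested genes. Of 579 other genes up to 1000 bases with a mean of at least 25 FPKM, 86.2% were higher in KO at day 30, with a median of 0.14. At day 7 22.3% of them were higher, with a median of -0.12, and at day 1 75.6%, with a median of 0.16. All 14 other complex I subunits and all 18 nuclear ATP synthase genes were also higher in KO at day 30, with medians of 0.21 and 0.30, and none passed the test. Fibroblast and meningeal markers were higher in KO for 5 of 5 genes without overlap, with sums of 36.8 to 105.2 FPKM against 22.02 to 23.9 in WT, and oligodendrocyte markers for 6 of 6, with sums of 895.5 to 959 FPKM against 582 to 865. Red blood cell markers were higher for 5 of 5, with overlap. The part of transcript length and of these cells in the nuclear difference was not tested.

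The sequence upstream of the nuclear members was read from RefSeq promoters of build GRCm38.p6, which held 36 of the 46 genes. NRF1 is a transcription factor known to bind the promoters of many respiratory genes, and ETS factors such as GABP, also called NRF2, bind others. The NRF1 motif (GCGC, any base, TGCGC) was searched on both strands within 250 bases upstream of the start. It occurred in 5 of 36 members (13.9%), against 4.23% of 27025 genes, with each gene counted once over all its promoters. The ETS motif CCGGAAG occurred in 6 of 36 (16.7%), against 7.83%, and the YY1 motif (AAGATGG, then C, any base, GC) in 0 of 36, against 0.474%. Matches are shown in capitals for 4 members: Sdha and Sdhd, which hold more than 1 in the stretch shown, Cox6b1, the most abundant nuclear member, and Cox6a1, which rose in KO from day 7 to day 30 and has NRF1 matches further upstream. Capitals of different motifs do not overlap in these stretches. Sdha lies at chr13:74350241-74350340, Cox6a1 at chr5:115348959-115349058, Sdhd at chr9:50603869-50603968 and Cox6b1 at chr7:30626116-30626215, all read on the minus strand.
Sdha: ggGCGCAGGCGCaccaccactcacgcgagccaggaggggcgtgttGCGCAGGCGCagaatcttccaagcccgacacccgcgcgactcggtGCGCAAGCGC
Cox6a1: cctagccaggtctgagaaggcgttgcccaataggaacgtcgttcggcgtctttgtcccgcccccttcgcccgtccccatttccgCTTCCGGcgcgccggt
Sdhd: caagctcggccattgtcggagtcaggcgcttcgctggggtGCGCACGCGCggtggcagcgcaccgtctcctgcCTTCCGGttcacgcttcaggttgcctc
Cox6b1: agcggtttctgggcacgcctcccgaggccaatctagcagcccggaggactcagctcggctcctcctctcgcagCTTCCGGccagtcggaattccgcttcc
Sdha, the flavoprotein of complex II, carries 3 NRF1 matches in this stretch, and Sdhd 1 NRF1 and 1 ETS match. Their KO minus WT differences at day 30, 0.02 and 0.28, were the lowest of the 46 and near the median. A match says only that the letters are present.

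Among 11 nuclear regulators of respiratory genes tested, Cerox1 was the 1 called between genotypes. Cerox1 is a long noncoding RNA known from mouse neuroblastoma cells to raise complex I subunit transcripts. At day 1 it measured 2.32, 2.69 and 4.31 FPKM in KO, against 1.36, 1.3 and 1.06 in WT, a difference of 0.85 ± 0.17 without overlap (limma adjusted p = 0.0433). The difference was 0.35 at day 7 and 0.21 at day 30, neither of which passed. The call was lost under quantile normalization (adjusted p = 0.0674), scaled to the other genes (0.0631), without the filter (0.0705) and without both day 1 libraries numbered 3 (0.135). It was also lost without KO replicate 3 (difference 0.65, adjusted p = 0.152), without KO replicate 2 (adjusted p = 0.0812), without WT replicate 1 (adjusted p = 0.0539) and, in a fit of the 6 day 1 libraries alone, at an adjusted p of 0.72. With age Cerox1 rose from day 7 to day 30, by 1.19 in KO and 1.33 in WT, to 8.69, 9.35 and 10.6 FPKM in KO and 8.93, 6.88 and 8.69 in WT.

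Nrf1 and Gabpb1, which act at the motifs above, fell from day 1 to day 7 in both genotypes. From day 1 to day 7 in WT 5 of the 11 regulators fell and 1, Cerox1, rose, where 28% of all genes fell and 20.9% rose. Those that fell in WT included Nrf1 (-0.54 ± 0.11) and the GABP subunits Gabpa (-0.76 ± 0.17), Gabpb1 (-0.49 ± 0.11) and Gabpb2 (-0.71 ± 0.15). In KO 2 fell, Nrf1 (-0.65 ± 0.11) and Gabpb1 (-0.44 ± 0.11), and 2 rose, the coactivator Ppargc1a (1.01 ± 0.21) and the receptor Esrrg (0.75 ± 0.19), where 29.4% of all genes fell and 19.3% rose. Nrf1 measured 1.03, 1.06 and 1.24 FPKM at day 7 against 2.44, 2.31 and 2.18 at day 1 in KO, and 1.13, 1.26 and 1.4 against 2.61, 2.28 and 2.03 in WT. From day 7 to day 30 the coactivator Pprc1 fell by 0.63 in KO and 0.68 in WT on the log2 scale, and the receptor Esrra rose by 0.78 and 0.68.

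Many genes for mitochondrial DNA upkeep and RNA handling fell from day 1 to day 7. In KO 14 of 26 fell and none rose, and in WT 15 of 26 fell and 1 rose, where 29.4% and 28% of all genes fell. Twnk, the helicase of mitochondrial DNA replication, fell to 3.44, 3.08 and 3.48 FPKM at day 7 against 7.65, 7.06 and 6.62 at day 1 in KO, and to 2.88, 3.55 and 3.12 against 10.3, 8.5 and 7.74 in WT (adjusted p = 1.5e-05 and 8.7e-07). Every day 7 library lay below every day 1 library of its genotype. Mterf3, known as a repressor of mitochondrial transcription, fell by 0.59 in KO and 0.75 in WT. Mtpap, the mitochondrial poly(A) polymerase, fell by 0.64 in WT. From day 7 to day 30 there were 2 higher and 3 lower in KO, and 3 higher and 4 lower in WT, below the shares of all genes (15.9% higher and 22% lower in KO, 20.8% and 29.6% in WT). Fastk rose by 0.77 in KO and 0.68 in WT, and Lrpprc, which stabilises mitochondrial mRNAs, fell by 0.41 and 0.55. The KO call of Lrpprc was lost in 2 of 6 fits that left out a KO library. No gene of this list passed between genotypes.

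Among 40 assembly factors, 3 rose and 4 fell from day 1 to day 7 in KO, and 10 rose and 2 fell in WT, where 19.3% of all genes rose and 29.4% fell in KO, and 20.9% and 28% in WT. Ttc19, which acts in complex III assembly, rose by 0.67 ± 0.10 in KO and 0.59 ± 0.10 in WT. From day 7 to day 30 there were 6 higher and 4 lower in KO, and 5 higher and 6 lower in WT, near or below the 15.9% and 22% of all genes in KO and the 20.8% and 29.6% in WT. Coa7, an assembly factor of complex IV, fell by 0.63 in KO and 0.88 in WT, to 4.63, 4.72 and 4.63 FPKM in KO and 4.24, 4.49 and 3.76 in WT. Of the 18 nuclear ATP synthase genes, 0 fell in KO and 7 in WT from day 7 to day 30, where 22% and 29.6% of all genes fell. Among the 7 were Atpif1, which inhibits the enzyme (-0.98 ± 0.17), and the c-ring genes Atp5g1 (-0.61 ± 0.18) and Atp5g3 (-0.61 ± 0.15). Atpif1 measured 99.2, 77.7 and 95.3 FPKM in KO at day 30 against 117, 121 and 123 at day 7, and 70.03, 65.6 and 76.5 in WT against 136, 142 and 143. Calls in 1 genotype alone do not show a difference between genotypes for the ATP synthase genes. The interaction called 0.015% of all genes tested. Of 5 tissue isoforms tested, Cox6a2, the complex IV isoform of heart and skeletal muscle, rose from day 1 to day 7, by 1.78 ± 0.36 in KO and 1.85 ± 0.36 in WT, to 6.84, 6.05 and 5.71 FPKM in KO and 9.59, 11.98 and 2.87 in WT.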

How the data were processed

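RNA sequencing of 18 libraries of mouse cerebral cortex was analysed from the gene table of FPKM values deposited by the authors. Bowtie2, RSEM 1.3.1, DESeq2 1.4.5 and build GRCm39 are listed, per the submitters' processing notes, without role or order. Genes with at least 1 FPKM in at least 3 libraries were kept (13347 of 28852) and log2(FPKM + 1) was fitted with limma 3.58.1 with trend in R 4.3.3, with 6 group means in 1 fit and 12 residual degrees of freedom. Tests were two-sided, and p-values were adjusted by Benjamini-Hochberg over all genes tested, with a threshold of 0.05. Fold changes are on this scale, which understates changes of low genes. The fit was tested on simulated data.

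The 59 members, the gene lists and the markers were chosen with earlier results of these data known. Values in every library are given for the 2 members with the smallest p where fewer than 2 were called in a genotype comparison, for the largest called changes with age in each genome, and for the members with the highest and lowest mean. Up to 4 called genes are named per other list, and Cerox1 always. Further members were named after their values were seen. Copies were found with blastn 2.17.0 in GENCODE M21 of GRCm38, and promoters came from RefSeq tables of GRCm38.p6, neither of which is the build of the files. Same-numbered KO and WT libraries correlated in their deviations by 0.03 to 0.13 at day 1, 0.33 to 0.53 at day 7 and -0.34 to -0.04 at day 30. The WT library that correlated best had the same number for each KO library at day 1. At day 7 this held for replicates 1 and 3, and at day 30 for none. The numbers were not taken as pairs in the main fit, and a replicate block was tried as an alternative. Alternatives covered the pseudocount, the filter, 3 scalings, a replicate block, a fit of the compared groups alone and leaving out each library.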

Additional observations from a re-analysis of the deposited data

Results flagged for a closer look

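Ndufa8, an accessory subunit of complex I, separated the genotypes in opposite directions on 2 days. At day 30 it measured 105, 86.2 and 92.4 FPKM in KO, against 82.7, 84.4 and 81.9 in WT, a log2 difference of 0.18, and at day 7 81.2, 81.5 and 79.9 FPKM in KO, against 83.5, 93.5 and 84.1 in WT, a log2 difference of -0.10. The 2 differences were 0.2861 apart on the log2 scale, and the limma interaction over the 3 days gave an adjusted p of 0.819. Of all genes tested, 9.35% lay above without overlap at day 30 and 10.9% below at day 7. The share of all genes that did both is not given here.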

How the results depend on the processing

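No genotype comparison called a member under any scaling, filter, pseudocount or block tried; leaving out 1 library gave 0 to 2 calls at day 1. Counts with age moved more, from 11 in KO and 5 in WT (day 7 minus day 1) and 16 in KO and 17 in WT (day 30 minus day 7). Without the filter they were 2 and 2, then 6 and 8. For day 7 minus day 1 in KO and WT they were 20 and 10 under quantile normalization, 24 and 15 as TPM, 26 and 17 scaled to the other genes, and 22 and 1 in fits of the groups compared alone, where day 30 minus day 7 in WT gave 40. Leaving out both day 1 libraries numbered 3, chosen after seeing the data, gave 37 and 45, then 28 and 38. Leaving out 1 library gave 5 to 14 in KO and 1 to 39 in WT for day 7 minus day 1, and 9 to 16 in KO and 14 to 15 in WT for day 30 minus day 7; the 39 was without WT day 1 replicate 3, and the 9 without KO day 30 replicate 1 or 3. CYTB, which rose from day 1 to day 7 in KO, measured -0.058 under quantile normalization, which fixes the highest ranks. With the replicate block the counts were 12 and 6, then 17 and 17, with 0 between genotypes, and at day 1 it called 39 of all genes against 69 without it. Of the alternatives for single genes, 1416 kept their direction and side of the threshold, 167 lost the call, 3 gained it and 1 reversed. Causes were not tested, except where named. Each fit has 3 libraries a group, and FPKM without read depth allows no counting error.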
